A study of Mus musculus with 8 samples.

Results

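Cytosolic ribosomal protein genes encode the proteins that, together with ribosomal RNA, build the ribosomes of the cytoplasm. They were taken as every gene symbol that starts with Rpl or Rps followed by a digit, plus Rplp0, Rplp1, Rplp2 and Rpsa, leaving out the Rps6 kinases, the Rps19 binding protein and symbols that end as pseudogenes. The rule found 87 genes among the 24413 gene symbols of the count tables, 53 of the large ribosomal subunit and 34 of the small subunit, and used no measured value. The samples were plasmablasts, the dividing and antibody-secreting descendants of B cells, from mice with a B lineage knockout of Jagn1 and from control mice. Jagn1 encodes a protein of the endoplasmic reticulum (ER) membrane.

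The knockout (KO) group held 4 libraries from mice with floxed Jagn1 alleles and Mb1Cre, a recombinase expressed from the B lineage gene Cd79a (Jagn1 fl/fl Mb1Cre+). The control group held 4 libraries from mice with the floxed alleles (Jagn1 fl/fl), for which the labels list no Cre, so the loss of Jagn1 and the presence of the Cre allele cannot be told apart. All mice were of the C57BL/6J strain, and no age was used here. In both groups B220+ cells from the spleen were stimulated with 25 µg/ml lipopolysaccharide (LPS), a product of bacterial walls that makes B cells proliferate and turn into plasmablasts. After 4 days of culture the CD22-CD138+ fraction was taken by flow sorting. Polyadenylated RNA was read with a 3′ tag kit, which sequences the end of each transcript, so counts were not divided by gene length. The labels give 4 mice per genotype.

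A ribosome has a small subunit, which holds the mRNA and reads its codons, and a large subunit, which joins amino acids and leads the growing chain out through a tunnel. Each ribosomal protein is usually present once per ribosome, except for the paired stalk proteins, and most of their mRNAs start with a pyrimidine tract (the TOP motif) through which the mTORC1 kinase pathway controls their translation. Plasmablasts carry large numbers of ribosomes on the ER, where antibody chains are made. The question put to the data was whether the mRNAs of the ribosomal proteins, and of the large and small subunit apart, differed between KO and control plasmablasts.

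Library totals ran from 5882912 to 10066661 counts. Jagn1 gave 2, 1, 1 and 1 counts in KO replicates 1 to 4, against 19, 35, 16 and 99 counts in control replicates 1 to 4, with a log2 fold change of -4.81 ± 0.73 (SE, adjusted p = 0.000818, edgeR's quasi-likelihood test). The deleted exons are unknown here, and a 3′ tag lying outside them would not check the deletion. Control replicates 1 and 4 stood further from their group than the other libraries, with root mean square log2 deviations over all tested genes of 0.594 and 0.581, the other 6 libraries having 0.324 to 0.432. All 9 plasmablast markers found in the tables were detected and 5 were called lower in the KO, with a summed level of 21215 to 27254 CPM (counts scaled to a library size of 1000000) in KO libraries and 27378 to 34486 CPM in control libraries. Markers of T cells summed to 6.31 to 8 CPM in KO libraries and 9.47 to 13.4 CPM in control libraries, those of myeloid cells to 0.940 to 3.16 CPM and 1.07 to 2.53 CPM, and those of NK cells to 0.403 to 2.1 CPM and 0 to 2.92 CPM. The myeloid markers Lyz2, Cd14, S100a8 and S100a9, the NK cell marker Ncr1 and the globin genes were at 0 counts in every library. Of 7 tested B cell markers 1, Cd79a, was called lower in the KO. Cd79a is the gene from which Mb1Cre is expressed, and the part of the Cre allele in this call was not tested. The B cell markers summed to 829 to 939 CPM in KO and 883 to 1141 CPM in control libraries.

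Most ribosomal protein mRNAs lay slightly higher in the KO, and few differed by more than the spread between mice. Of the 87 genes, 80 had enough counts to be tested, 48 of the large and 32 of the small subunit. Called higher, at an adjusted p under 0.05 over all 9904 genes tested, were 5 of the 80, and 0 were called lower. The called genes were Rpl4, Rpl17 and Rpl21 of the large subunit and Rps24 and Rps6 of the small subunit. Called members made up 6.25% of each subunit's tested genes and of the whole set. Over all genes tested, 2.54% were called higher, 3.19% lower and 5.74% in either direction. At an unadjusted p under 0.05, 18 members were higher and 0 lower with edgeR, against 8.30% of all genes higher and 9.72% lower. At an adjusted p under 0.05, DESeq2 called 8 members higher, against 3.73% of all genes, and limma-voom 15, against 4.76%. The plasmablast markers moved the other way in the same libraries, and their part in this result was not tested. In bulk RNA, fewer cells of a type and less RNA per cell cannot be told apart.

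The fitted fold change was above 0 in 74 of the 80 tested members, 43 of 48 in the large and 31 of 32 in the small subunit, against 48.7% of all genes tested. The median log2 fold change was 0.22 in each subunit, a 1.16-fold difference, with quartiles of 0.12 and 0.33 in the large and 0.13 and 0.31 in the small subunit. The median over all genes tested was -0.01. Over the 16 alternatives 66 to 75 members had a value above 0. These counts describe genes measured in the same 8 libraries and are no test. The fitted values ran from -0.16 for Rpl23a to 1.07 for Rpl4. More than 1.5-fold higher were 6 of the 80 members, against 932 of all 9904 genes tested, so large differences were not more common among the members. All 4 KO libraries lay above all 4 control libraries for 12 of the 80 members, 15%, against 6.45% of all genes tested, and all 4 lay below for 0 members, against 6.64% of all genes.

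**Figure D1:**
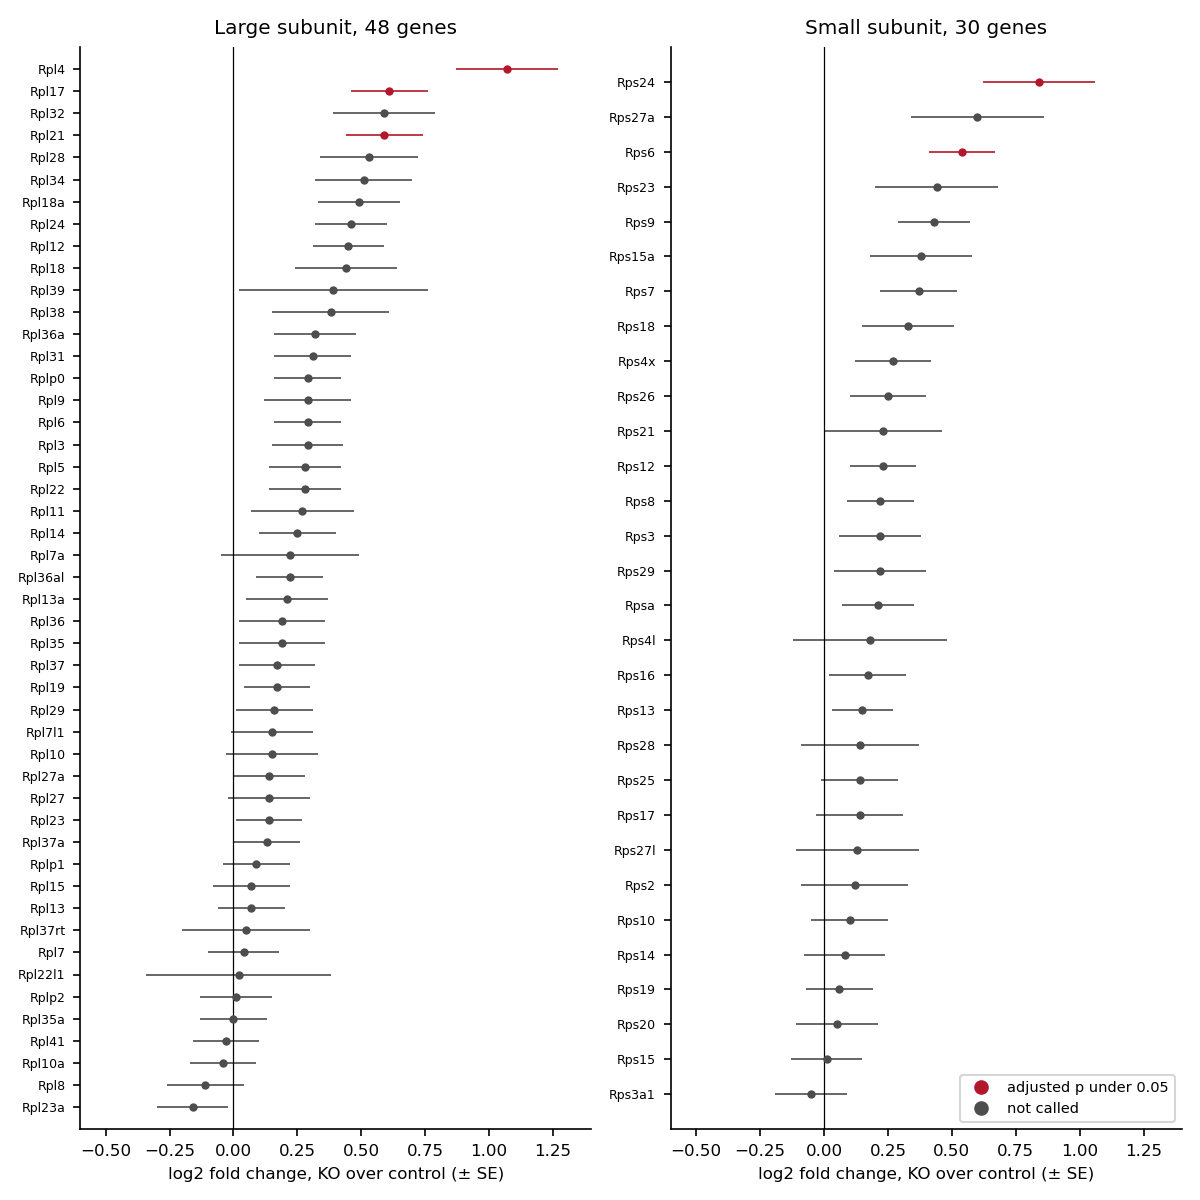
Log2 fold change (KO over control, horizontal axis) with its standard error for 78 of the 80 tested ribosomal protein genes, large subunit on the left and small subunit on the right. Points lie right of 0 for 43 of 48 large and 29 of 30 small subunit genes shown, and the 5 called genes are in red.

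Ribosomal protein mRNAs are abundant, and 72 of the 80 tested members had an average log2 CPM of at least 9. Among the 207 other genes at that level, 17 (8.21%) were called higher and 19 lower, and 29 (14%) had all KO libraries above all controls. The members' shares of 6.25% called higher and 15% with all KO libraries above therefore stood near those of other abundant genes. In the other direction, 27 of the 207 had all KO libraries below all controls. Of the members, 0 were called lower and 0 had all KO libraries below all controls. The abundant genes outside the set had a median of -0.04 on the log2 scale, and 42.5% of them had a fitted value above 0, against 92.5% of the members. Of the 207, 75 had an unadjusted p under 0.05 in edgeR, 36 of them higher. Of the 80 members 18 had one, all of them higher. Whether these shares differ was not tested.

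Rpl4, whose protein reaches into the exit tunnel of the large subunit, showed the largest difference of the set. It had 636, 1132, 974 and 1029 CPM in KO replicates 1 to 4, against 338, 367, 488 and 597 CPM in control replicates 1 to 4. Every KO library lay above every control library, KO replicate 1 by the narrowest margin, over control replicate 4. Rpl4 averaged 943 ± 214 CPM in the KO and 447 ± 119 CPM in the control (SD, n = 4 each). The log2 fold change was 1.07 ± 0.20 (SE, adjusted p = 0.00487, edgeR's quasi-likelihood test). The call held under all 16 alternatives, with a log2 fold change of 0.96 to 1.24. On the plus strand of chromosome 9 the gene spans 64173375 to 64178666 (build GRCm38, which is mm10, in GENCODE M21), has 10 exons and holds 5 small nucleolar RNA (snoRNA) genes, among them Snord16a.

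The other called large subunit genes were Rpl17, whose protein lines the exit tunnel beside that of Rpl4, and Rpl21, another protein of that subunit. Rpl17, on chromosome 18 from 74998558 to 75003381, had 951, 1166, 1065 and 751 CPM in KO libraries, against 695, 585, 635 and 661 CPM in control libraries. KO replicate 4 was the lowest KO library and still above the highest control. The log2 fold change was 0.61 ± 0.15 (SE, adjusted p = 0.0248, edgeR's quasi-likelihood test). Rpl21, on chromosome 5 from 146832890 to 146837032, had 1291, 1680, 1524 and 1635 CPM in KO libraries, against 987, 784, 1129 and 1186 CPM in control libraries. Its groups did not overlap either, with KO replicate 1 lowest among the KO libraries and control replicate 2 lowest among the controls. The log2 fold change was 0.59 ± 0.15 (SE, adjusted p = 0.0348, edgeR's quasi-likelihood test). All coding 50-base words of both genes also occur in other annotated genes, so reads could be split with copies, depending on a counting step that is not given.

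Rps24, a small subunit protein whose gene is mutated in some patients with Diamond-Blackfan anaemia, had the largest difference of its subunit. It had 1514, 2322, 2113 and 1918 CPM in KO replicates 1 to 4, against 707, 825, 1395 and 1472 CPM in control replicates 1 to 4. KO replicate 1 lay just above the highest control, and control replicates 1 and 2 lay well below control replicates 3 and 4. The means were 1967 ± 344 CPM in the KO and 1100 ± 390 CPM in the control (SD, n = 4 each), with a log2 fold change of 0.84 ± 0.22 (SE, adjusted p = 0.0363, edgeR's quasi-likelihood test). The gene lies on chromosome 14 from 24487125 to 24496959. Of its coding 50-base words 80.35% also occur in other annotated genes, so its reads too could be split with copies.

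Rps6, the small subunit protein that the S6 kinases phosphorylate downstream of mTORC1, had 1912, 2379, 2177 and 2058 CPM in KO libraries, against 1377, 1305, 1567 and 1612 CPM in control libraries. The groups did not overlap, with KO replicate 1 lowest among the KO libraries and control replicate 4 highest among the controls. Rps6 averaged 2131 ± 197 CPM in the KO and 1465 ± 148 CPM in the control (SD, n = 4 each), with a log2 fold change of 0.54 ± 0.13 (SE, adjusted p = 0.0248, edgeR's quasi-likelihood test). It lies on chromosome 4 from 86854660 to 86857412 on the minus strand. All its coding 50-base words also occur in other annotated genes, as for Rpl17 and Rpl21, so its reads too could be split with copies.

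**Figure D2:**
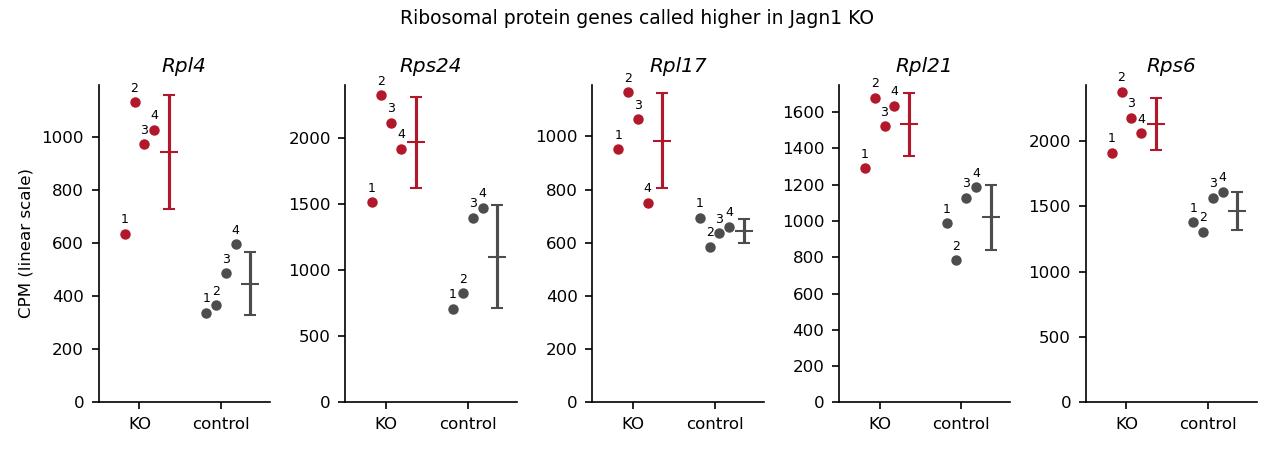
CPM (linear vertical axes from 0) of the 5 called genes in each KO library (left, red) and control library (right, grey), with replicate numbers and the mean ± SD beside the points. All 4 KO libraries lie above all 4 control libraries in each panel.

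Apart from that of Rpl4, these calls were lost with single libraries left out. Without KO replicate 2, Rpl17 (adjusted p = 0.128), Rpl21 (0.141), Rps24 (0.141) and Rps6 (0.124) lost the call in edgeR's quasi-likelihood test, with log2 fold changes of 0.52, 0.54, 0.75 and 0.49. Without KO replicate 3 or without control replicate 2 the same 4 genes lost it, with adjusted p of 0.0875 to 0.109 and of 0.0938 to 0.133 in that test. Without KO replicate 1 Rpl17 (0.0625), without KO replicate 4 Rpl21 (0.099) and Rps24 (0.0849), and without control replicate 3 Rpl17 (0.0799), Rpl21 (0.0657) and Rps6 (0.0549) fell short of the threshold of edgeR's test. Without control replicate 1 there were 7 called members, and 3.68% of all genes tested were called higher. With control replicate 4 left out these values were 13 members and 4.09% of all genes, and with both left out 8 members and 4.26%.

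Beyond the 5 called genes, 7 members had all KO libraries above all controls without passing the test. Among the large subunit genes, Rpl24, which forms a bridge between the subunits, had 781 to 1085 CPM in KO libraries and 612 to 711 CPM in control libraries (log2 fold change 0.46 ± 0.14 SE, adjusted p = 0.0656 in edgeR's quasi-likelihood test). Rpl12, at the base of the stalk, had 1546 to 1868 CPM in KO libraries and 1005 to 1387 CPM in control libraries (0.45 ± 0.14, adjusted p = 0.074, edgeR). Rpl5, which binds a small ribosomal RNA and, when free, the p53 regulator Mdm2, had 4176 to 4540 CPM in KO libraries and 2975 to 4118 CPM in control libraries (0.28 ± 0.14, adjusted p = 0.303, edgeR). The stalk scaffold Rplp0 was among these 7 genes too, and is described with the stalk.

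Of the small subunit genes without overlap, Rps9, at the entry of the mRNA channel, had 7397 to 9892 CPM in KO libraries and 6054 to 7365 CPM in control libraries, with KO replicate 1 just above control replicate 3 (log2 fold change 0.43 ± 0.14 SE, adjusted p = 0.0801, edgeR's quasi-likelihood test).

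Several members with large fitted values overlapped between groups. Rpl32, a large subunit protein, had 769, 877, 798 and 770 CPM in KO libraries, against 333, 453, 569 and 777 CPM in control libraries (log2 fold change 0.59 ± 0.20 SE, adjusted p = 0.114, edgeR). Rps27a, made as a fusion with ubiquitin, had 3909, 4510, 4271 and 4133 CPM in KO libraries, against 1389, 2113, 3230 and 4393 CPM in control libraries (0.60 ± 0.26, adjusted p = 0.24, edgeR). In both genes the KO libraries were close together, the controls were spread out, and control replicate 4 reached the KO range. Rpl28 had 626, 843, 762 and 1164 CPM in KO libraries, against 495, 492, 622 and 745 CPM in control libraries (0.53 ± 0.19, adjusted p = 0.139, edgeR). Rps23, which sits at the decoding centre, had 4645, 4888, 4033 and 5648 CPM in KO libraries, against 1795, 3112, 4173 and 5132 CPM in control libraries (0.44 ± 0.24, adjusted p = 0.378, edgeR). Without control replicate 4, Rpl32, Rps27a and Rpl28 were called.

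The 6 members with a fitted value below 0 were Rpl23a, Rpl8, Rps3a1, Rpl10a, Rpl41 and Rpl35a, and their groups overlapped. Rpl23a, at the mouth of the exit tunnel, had 2860, 3104, 3223 and 2613 CPM in KO libraries, against 3002, 2774, 3581 and 3848 CPM in control libraries (log2 fold change -0.16 ± 0.14 SE, adjusted p = 0.609, edgeR's quasi-likelihood test). Rpl8, next to the peptidyl transferase centre, had 2839, 2878, 2610 and 2743 CPM in KO libraries, against 3662, 3034, 2996 and 2235 CPM in control libraries (-0.11 ± 0.15, adjusted p = 0.78, edgeR). The values of Rpl8 in the KO lay inside the range of the controls. Rpl10a, of the mobile stalk at the tRNA exit side, averaged 2386 ± 292 CPM in the KO and 2458 ± 143 CPM in the control (SD, n = 4 each). Rpl41, the shortest protein of the ribosome, averaged 5047 ± 374 CPM in the KO and 5167 ± 587 CPM in the control (SD, n = 4 each). Rps3a1 averaged 6388 ± 459 CPM in the KO and 6595 ± 960 CPM in the control, and Rpl35a 1289 ± 86.5 CPM and 1292 ± 120 CPM (SD, n = 4 each). The signs of Rpl35a, Rpl41, Rpl10a, Rpl8 and Rps3a1 were not stable under other scalings, tests or left-out libraries, whereas that of Rpl23a was the same in all 16 alternatives.

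The members with the most counts were not called in edgeR's test. Rps9, described above, was the third of the small subunit by counts and had no overlap between groups. It was called by DESeq2 and limma-voom. Rpl13a, which also takes part in silencing of inflammatory mRNAs in human monocytes, had 12759, 12738, 11576 and 17174 CPM in KO libraries, against 11585, 10618, 14609 and 9967 CPM in control libraries (log2 fold change 0.21 ± 0.16 SE, adjusted p = 0.53, edgeR). Rps14 had 14743, 15809, 14903 and 9834 CPM in KO libraries, against 13314, 11442, 15066 and 12645 CPM in control libraries (0.08 ± 0.16, adjusted p = 0.865, edgeR). KO replicate 4 was the highest of all 8 libraries for Rpl13a and the lowest for Rps14. Rps12 averaged 12578 ± 784 CPM in the KO and 10706 ± 1439 CPM in the control, and Rpl23 8995 ± 547 CPM and 8151 ± 1105 CPM (SD, n = 4 each), and neither was called. Among the members with the lowest fold changes of the small subunit, Rps19, the first gene found mutated in Diamond-Blackfan anaemia, averaged 4373 ± 200 CPM in the KO and 4203 ± 623 CPM in the control (SD, n = 4 each), with overlapping groups. Rps20 averaged 7227 ± 801 CPM in the KO and 6984 ± 1657 CPM in the control, and Rps15, whose tail reaches the decoding site, 2959 ± 340 CPM and 2943 ± 367 CPM (SD, n = 4 each).

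The stalk of the large subunit, which recruits the translation factors that hydrolyse GTP, is built from the scaffold Rplp0 and the paired proteins Rplp1 and Rplp2. Rplp0 had 2693, 2900, 2795 and 2562 CPM in KO libraries, against 2173, 1940, 2357 and 2492 CPM in control libraries, without overlap (log2 fold change 0.29 ± 0.13 SE, adjusted p = 0.241, edgeR). Rplp1 had 11618, 10634, 10182 and 8690 CPM in KO libraries, against 9293, 9379, 10244 and 9806 CPM in control libraries, with overlap (0.09 ± 0.13). Rplp2 had 6104, 5810, 5499 and 7303 CPM in KO libraries, against 5326, 6850, 6126 and 6258 CPM in control libraries, with overlap (0.01 ± 0.14). Rpsa, a small subunit protein also known as a laminin receptor, had 6026, 4766, 4449 and 4726 CPM in KO libraries, against 4747, 4282, 4428 and 3815 CPM in control libraries (0.21 ± 0.14, adjusted p = 0.468, edgeR). KO replicate 1 was the highest library for both Rplp1 and Rpsa. KO replicate 2 also lay above every control in both, and KO replicates 3 and 4 overlapped the controls.

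Summed over all 87 genes, ribosomal protein mRNAs took 23.2%, 24.5%, 23.5% and 23.2% of the counts in KO replicates 1 to 4, against 19.5%, 19.8%, 22.9% and 22.5% in control replicates 1 to 4. The means were 23.6% ± 0.605 in the KO and 21.2% ± 1.77 in the control (SD, n = 4 each). The KO libraries lay together above all controls, and the controls fell into replicates 1 and 2 below and replicates 3 and 4 close to the KO. The difference of 2.44 percentage points was 1.96 points without the 5 members with the most counts, and 1.89 to 3.02 points with 1 library left out. Counting error is negligible at these totals. The share is one of the counts in the tables, and immunoglobulin chain genes were not analysed here.

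By subunit the shares differed in the same direction, with narrow overlap in the large subunit. Large subunit genes took 12.2% ± 0.254 of the counts in the KO and 11.1% ± 0.852 in the control, and small subunit genes 11.4% ± 0.425 and 10.1% ± 0.921 (SD, n = 4 each). For the large subunit, KO replicate 1 with 11.9% lay just under control replicate 3 with 12%. For the small subunit the groups met without overlap. The lowest KO library, replicate 4, lay marginally above the highest control, replicate 3, and both rounded to 11%. The ratio of large to small subunit counts was 1.06, 1.04, 1.05 and 1.11 in KO libraries, against 1.11, 1.12, 1.09 and 1.08 in control libraries. KO replicates 1, 2 and 3 lay below all controls and KO replicate 4 inside their range. The mean ratio was 1.06 ± 0.0336 in the KO and 1.10 ± 0.0186 in the control (SD, n = 4 each), a difference of -0.0353 that was about as large as the spread within the KO.

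**Figure D3:**
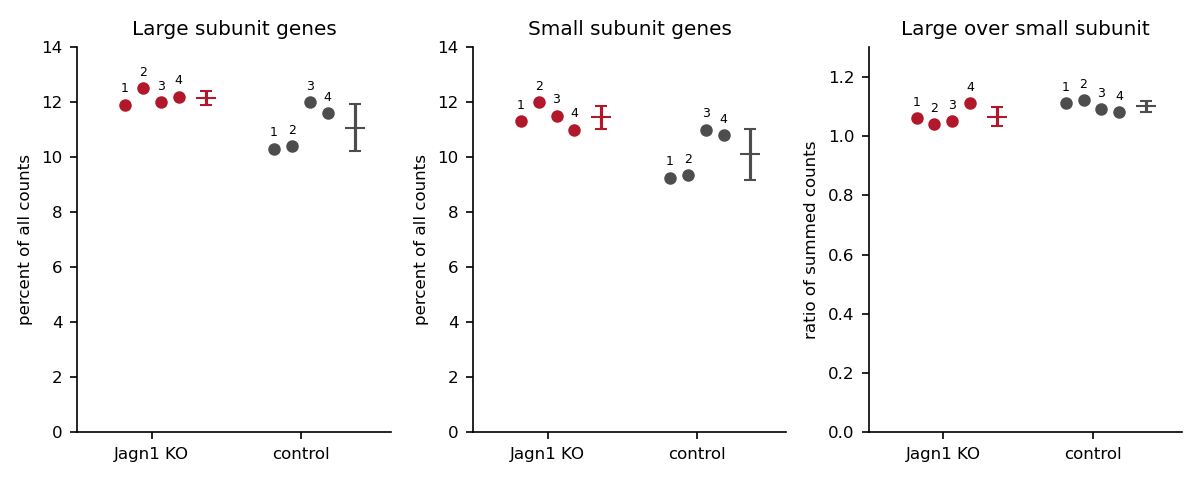
Percent of all counts on large subunit genes (left) and small subunit genes (middle), and the ratio of both sums (right), for each KO library (red) and control library (grey), with replicate numbers and mean ± SD. Control replicates 1 and 2 lie lowest in both shares, and the ratio is 1.04 to 1.11 in KO and 1.08 to 1.12 in control libraries.

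Gene by gene, the same order of libraries recurred. The median log2 difference from the control mean over the 80 tested members was 0.24, 0.33, 0.23 and 0.17 in KO replicates 1 to 4, and -0.11, -0.17, 0.16 and 0.16 in control replicates 1 to 4. KO replicate 2 was the highest KO library for 41 of the 80 genes. Control replicate 1 or 2 was the lowest of all 8 libraries for 63 genes, and those libraries were the lowest pair of controls for 50. Above the control mean lay 73, 73, 72 and 59 members in the KO libraries, and 26, 6, 72 and 59 in the control libraries, so control replicates 3 and 4 had as many members above that mean as KO replicates 3 and 4.

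A subset of members varied more among controls than between groups. Rpl39, whose protein lines the exit tunnel, had 1295, 1338, 1246 and 1509 CPM in KO libraries, against 322, 727, 1211 and 1859 CPM in control libraries (log2 fold change 0.39, edgeR). Rpl7a had 754 to 940 CPM in KO libraries and 328 to 1137 CPM in control libraries, and Rps21 2746 to 2984 CPM and 1360 to 3640 CPM. In all 3 genes control replicate 1 was the lowest and control replicate 4 the highest of all 8 libraries, and the KO libraries lay between them. These 3 genes were chosen after their values were seen. Control replicates 1 and 4 are the libraries that stood furthest from their group over all genes, and the part of that in these members was not tested.

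**Figure D4:**
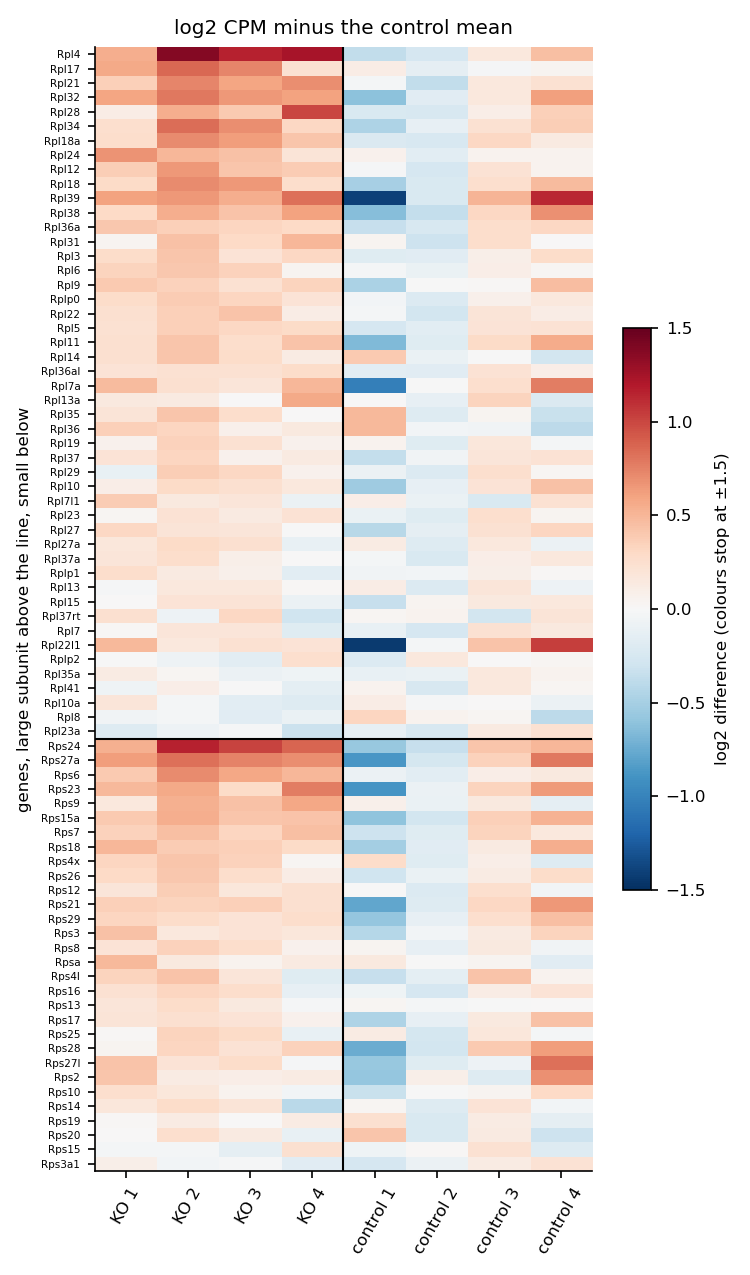
Log2 CPM minus the control mean (colour) for 78 of the 80 tested members (vertical axis, large subunit above the line) in each library (horizontal axis, KO left of the line). KO libraries are mostly above 0, and Rpl39, Rpl7a and Rpl22l1 are lowest in control replicate 1 and highest in control replicate 4.

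Ribosomal protein genes have many processed copies in the mouse genome, which bears on how their reads are counted. In GENCODE M21 all 87 symbols were found, on 19 chromosomes, and 85 are annotated as protein coding (the others were Rpl37rt and Rps4l). Of the 87 genes, 84 shared at least 1 coding word of 50 bases with an annotated pseudogene, 32 had every such word in another gene, and the median gene shared 90.3% of its words. Rpl7a shared words with 120 genes. Rpl4 shared 20.3% of its words, with the pseudogene Gm5835 alone. The tags of the kit fall near transcript ends, largely in untranslated sequence that this measure does not cover. Exons of 19 members overlapped a gene on the opposite strand and those of 5 a gene on the same strand, and the sources do not say whether strand was used in counting.

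Fold changes were set beside these properties. The 30 tested genes with every coding word shared had a median of 0.23 on the log2 scale, and the 14 with under 50% of them shared one of 0.22. Across the 80 tested genes, which are not independent replicates and share the same libraries, the share of repeated words and the fold change gave a Spearman rho of 0.12 and a Pearson r of -0.01. Average log2 CPM and fold change gave a rho of -0.30 and an r of -0.15, and coding length a rho of 0.06 and an r of 0.14.

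Among the core genes, Rps27 was nearly without counts. Rps27, a zinc finger protein of the small subunit, had 11 counts in all 8 libraries together, whereas its paralogue Rps27l had 1108, 885, 1019 and 910 counts in KO libraries and 528, 605, 757 and 2008 in control libraries. Rps27 has an intronless copy, Rps27rt, which had 0 counts. The last 60 coding bases (GRCm38, 5′ to 3′, stop codon left out) are printed to show how alike the 3 genes are at the end of their coding sequence; capitals mark bases that differ from Rps27.
Rps27: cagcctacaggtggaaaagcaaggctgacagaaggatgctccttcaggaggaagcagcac
Rps27rt: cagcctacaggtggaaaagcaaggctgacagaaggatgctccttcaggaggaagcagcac
Rps27l: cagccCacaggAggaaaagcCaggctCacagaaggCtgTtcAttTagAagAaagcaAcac
Rps27 and Rps27rt did not differ in this stretch, and Rps27l differed from them at 11 bases. Rps27 lies on chromosome 3 from 90212522 to 90213651, Rps27rt on chromosome 9 from 114982366 to 114982739, and Rps27l on chromosome 9 from 66946086 to 66949516. All coding words of Rps27 recur in other genes, against 48.3% of those of Rps27l. The sources do not say whether reads that match several genes were dropped, so the count of Rps27 is no measure of its expression. Rps27l itself was not called (log2 fold change 0.13 ± 0.24 SE, adjusted p = 0.838, edgeR), with 149, 127, 134 and 109 CPM in KO libraries, against 74.2, 97.5, 105 and 196 CPM in control libraries.

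Of the 7 members that were not tested, Rpl10l, Rpl26 and Rps27rt had 0 counts in every library, which allows up to 0.292 to 0.483 CPM of counted reads in a library at the floor of 3 counts (counting error only). Rpl30 had 97 counts, Rpl39l 33, Rpl3l 18 and Rps27 11 over all libraries. Rpl10l, Rpl39l and Rpl3l are paralogues known from testis or muscle, whereas Rpl26, Rpl30 and Rps27 encode core ribosomal proteins. Rpl26 shared 87.3% and Rpl30 83.1% of their coding words with other genes, and as for Rps27 their counts, and the floor for Rpl26, are no measure or limit of their expression.

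**Figure D5:**
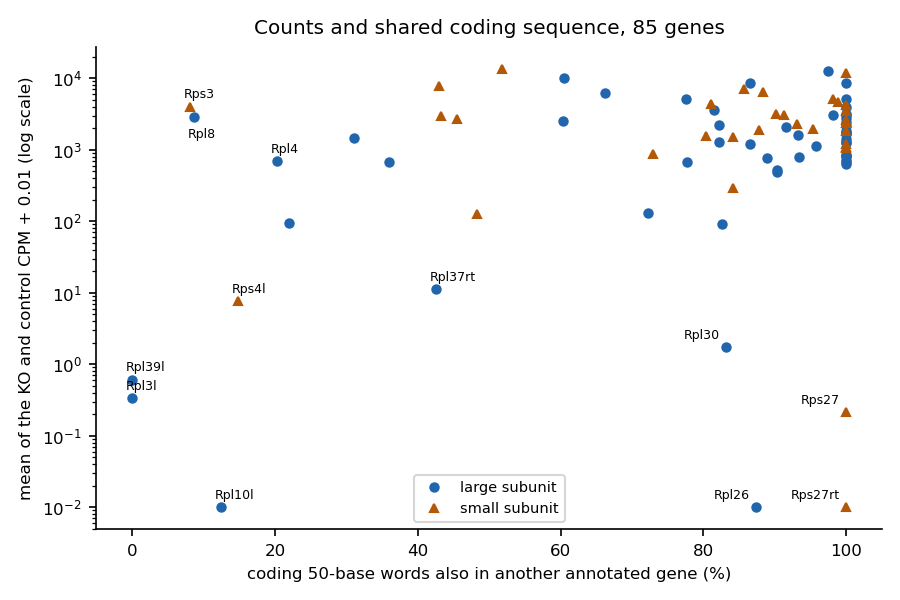
Mean of the KO and control CPM plus 0.01 (vertical log axis) against the percent of coding 50-base words that recur in another annotated gene (horizontal axis) for 85 of the 87 members, large subunit as circles and small subunit as triangles. Rpl26, Rpl30, Rps27 and Rps27rt combine high sharing with few or 0 counts, while many fully shared genes have over 1000 CPM.

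Paralogue pairs, each made of a ribosomal protein gene and a second gene related to it, had overlapping proportions in both groups. Rpl36al made up 35.4% to 38.2% of the summed counts of Rpl36a and Rpl36al in KO libraries and 35.2% to 41.7% in control libraries. Rpl22l1 made up 4.87% to 6.51% of its pair with Rpl22 in KO libraries and 2.17% to 10.0% in control libraries, and Rpl7l1 1.71% to 2.23% of its pair with Rpl7 in KO libraries and 1.28% to 2.02% in control libraries, where KO replicate 1 lay above every control. Rpl22l1 had 107, 85.0, 89.7 and 88.4 CPM in KO libraries, against 28.2, 74.9, 103 and 157 CPM in control libraries, so the KO lay inside the wide range of the controls. Rps4l, which is annotated as a pseudogene, made up 0.213% to 0.247% of its pair with Rps4x in KO libraries and 0.159% to 0.309% in control libraries. Of the 10 paralogue symbols of the set 6 were tested, and 0 of these were called by edgeR or had an unadjusted p under 0.05.

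The promoter table from RefSeq (GRCm38.p6, a window of 300 bases around each gene start) held 66 of the 87 members, 41 of the large and 25 of the small subunit. A run of at least 8 C or T on the gene's strand within 50 bases either side of the start was found in 53 of them, 80.3%, against 39.3% of the 27025 genes of the table. On the opposite strand the shares were 24.2% and 41.1%. The motif CCGGAAG, on either strand in the 300-base window, was present in 39.4% of members and 9.93% of all genes, and AAGATGGC, searched in the same way, in 9.09% and 3.19%. Windows are printed for 3 called genes and for the 3 members with fold changes nearest 0 that have one, on the gene's strand 5′ to 3′, with the longest run of C or T between 100 bases before and 30 bases after the start in capitals, to show the letters near the start in both kinds of gene; the run of at least 8 in Rps15 crosses the downstream end of that stretch and is not printed, and its capitals mark a shorter run.
Rpl4: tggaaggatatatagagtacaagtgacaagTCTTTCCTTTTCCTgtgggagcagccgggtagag
Rps24: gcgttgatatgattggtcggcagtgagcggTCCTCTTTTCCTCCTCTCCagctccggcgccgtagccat
Rps6: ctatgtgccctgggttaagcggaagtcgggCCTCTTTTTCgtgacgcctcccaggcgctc
Rpl35a: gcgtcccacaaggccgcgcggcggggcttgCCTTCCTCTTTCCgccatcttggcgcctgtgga
Rps15: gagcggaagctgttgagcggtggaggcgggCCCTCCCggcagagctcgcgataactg
Rplp2: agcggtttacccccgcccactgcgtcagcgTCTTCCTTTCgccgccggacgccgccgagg
In the order printed they lie at chr9:64173339-64173402, chr14:24490686-24490754, chr4:86857339-86857398 on the minus strand, chr16:33056447-33056509, chr10:80292382-80292438 and chr7:141447616-141447675. The longest runs were 14 bases in Rpl4, 19 in Rps24 and 10 in Rps6, and 13 in Rpl35a, 7 in Rps15 and 10 in Rplp2.

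Members with and without these motifs were set side by side. The 49 tested members with a pyrimidine run near the start had a median log2 fold change of 0.23 and 3 calls (6.12%, against 2.54% of all genes called higher). The 11 without one had 0.15 and 0 calls. At an unadjusted p under 0.05 in edgeR, 10 of the 49 and 2 of the 11 were higher, against 8.30% of all genes tested. Members with CCGGAAG had a median of 0.20 (24 genes) and those without it 0.22 (36 genes). A run in this window is a description of the letters and no measure of TOP activity.

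Introns of ribosomal protein genes hold snoRNA genes, whose RNAs guide the modification of ribosomal RNA. In GENCODE M21, 30 members held 58 of them. The 29 tested hosts and the 51 tested members without such a gene both had a median log2 fold change of 0.22, and 3 hosts (Rpl4, Rpl17 and Rpl21, 10.3%) and 2 other members (Rps24 and Rps6, 3.92%) were called, against 2.54% of all genes called higher.

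Other genes of the translation machinery that are regulated with ribosomal proteins or serve ribosome assembly were counted in the same fit. Of 16 other mRNAs with a TOP motif, 2 were called higher (12.5%, against 2.54% of all genes tested) and 0 lower, and the median was 0.33 on the log2 scale. They were Eef1b2, a subunit of the factor that recharges the elongation factor with GTP, and Btf3, a subunit of the nascent chain-binding complex. Eef1b2 had 2169, 2699, 2583 and 2509 CPM in KO libraries, against 1321, 1466, 1816 and 1918 CPM in control libraries, without overlap (log2 fold change 0.61, adjusted p = 0.0227, edgeR). Btf3 had 67.7, 74.5, 75.2 and 50.0 CPM in KO libraries, against 14.2, 29.5, 33.6 and 49.7 CPM in control libraries (1.07, adjusted p = 0.0378, edgeR), with KO replicate 4 just above control replicate 4. Both lost the call without KO replicate 2 (adjusted p = 0.102 and 0.128, edgeR), without KO replicate 3 (0.0814 and 0.115) or without control replicate 2 (0.0883 and 0.115), Eef1b2 also without KO replicate 4 (0.0567), and Btf3 also without KO replicate 1 (0.099) or control replicate 3 (0.0921).

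Among the genes that make ribosomal RNA and assemble ribosomes, none passed edgeR's test. Of 61 assembly factors 0 were called by edgeR (median log2 fold change 0.05), with 7 at an unadjusted p under 0.05. Over all 9904 genes tested, 1785 had an unadjusted p under 0.05 in edgeR, in either direction. The assembly factor with the smallest p was Nop58, a core protein of the snoRNA particles, with 193, 255, 218 and 286 CPM in KO libraries, against 164, 133, 193 and 170 CPM in control libraries (0.53, adjusted p = 0.0691, edgeR). DESeq2 and limma-voom called Nop58. Of 19 genes of RNA polymerase I and its factors 0 were called (median 0.05, 1 at an unadjusted p under 0.05 in edgeR), and of 14 chaperones and importers of ribosomal proteins also 0 (median 0.12, 3 at an unadjusted p under 0.05 in edgeR). The importer Ipo9, with the smallest p of these, had 25.4, 23.6, 21.9 and 19.7 CPM in KO libraries, against 41.9, 34.3, 24.4 and 29.9 CPM in control libraries (-0.53, adjusted p = 0.173, edgeR), and all its KO values but that of replicate 1 lay below every control. Among 76 mitochondrial ribosomal protein genes 0 were called (median 0.03 on the log2 scale), with 7 at an unadjusted p under 0.05 in edgeR.

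Of 18 regulators of TOP mRNAs and ribosomal protein genes, 1 was called higher (5.56%, against 2.54% of all genes tested) and 0 lower. This was Eif4ebp1, an inhibitor of cap-dependent initiation that mTORC1 switches off, with 40.0, 44.4, 40.8 and 44.4 CPM in KO libraries, against 11.8, 12.4, 17.3 and 22.8 CPM in control libraries (log2 fold change 1.39, adjusted p = 0.0012, edgeR). Of 18 tested genes of ribosome rescue and quality control, 1 was called higher (5.56%, against the same 2.54%) and 0 lower. The called gene was Hbs1l, which helps to split stalled ribosomes. Hbs1l had 107, 88.4, 94.2 and 104 CPM in KO libraries, against 65.3, 63.0, 61.0 and 71.8 CPM in control libraries, without overlap (0.59, adjusted p = 0.0243, edgeR). Its call was lost without any 1 of the KO libraries or without control replicate 2 or 3, with an adjusted p of up to 0.0847 in edgeR's test. Gnb2l1 (Rack1), a small subunit protein that the naming rule does not cover, had 2944, 2891, 2831 and 2730 CPM in KO libraries, against 1910, 2103, 2538 and 2673 CPM in control libraries, without overlap and without a call (0.30, adjusted p = 0.248, edgeR).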

How the data were processed

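Per the labels' protocols, Trizol-extracted total RNA of the sorted cells entered QuantSeq 3′ mRNA-Seq FWD libraries. The deposited files give raw counts of reads, whole numbers, for each gene symbol. The submitters' processing notes name the mm10 build and HTSeq 0.6.1, TopHat2 2.1.1, SAMtools 1.3.1 and BWA 0.7.12, without roles. The gene annotation and strandedness used for counting were not given in the sources used here. Molecular identifiers are not stated, so counts may include PCR copies, and floors cover counting error only.

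All 8 libraries were grouped by title and genotype. Genes were filtered with filterByExpr (minimum count 10, minimum total 15), leaving 9904, scaled with TMM and tested with edgeR 4.0.16 in R 4.3.3 (quasi-likelihood F-test, robust, group as the only term, two-sided, Benjamini-Hochberg over all genes tested, threshold 0.05). SE was taken as the absolute log2 fold change over sqrt(F). CPM uses TMM-scaled totals. Replicates did not agree within sampling noise (chi-square per degree of freedom 6.60 to 94.2). P-values measure the spread between these libraries. On simulated counts for this comparison (9714 genes, 200 changed) the steps recovered 8.70% of 1.5-fold, 61.2% of 2-fold and 96.9% of 4-fold changes, with 5 false among 114 calls.

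Named genes are Jagn1, called members, the 5 highest and lowest of each subunit, the 3 of each subunit with the most counts, stalk genes, Rpsa, paralogue pairs, and from each related list up to 4 called genes or the 1 with the smallest p; other members were named for their non-overlapping groups or their spread, after their values were seen. The members and lists were chosen with earlier results of these data known, and no value over the set was tested. Alternatives were RLE and upper quartile scaling, TMM without the members, DESeq2 1.42.0, limma-voom (limma 3.58.1) with sample weights, no filter, a replicate block, and leaving out each library or control replicates 1 and 4 together. Coding words, overlaps and snoRNA genes came from GENCODE M21 (GRCm38), promoters from RefSeq (GRCm38.p6). Protein sequences were not used here, and the values of 2 members are counted but not reported singly here.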

Additional observations from a re-analysis of the deposited data

Results flagged for a closer look

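Of 104 groups of 4 values examined, 2 held a library far from the other 3, and chance gives about 1 in 20 such groups. Jagn1 was 0.269 CPM in KO replicate 1, against 0.120 to 0.144 CPM in the other KO libraries, which is a difference of 2 counts from 1. Taf1b, a factor of RNA polymerase I that was not called, was 16.1 CPM in KO replicate 3, against 21.4 to 22.4 CPM in the other KO libraries.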

How the results depend on the processing

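Members called were 5 in the fit as reported, 8 with DESeq2, 15 with limma-voom and sample weights, 2 with the replicate block, 8 without control replicates 1 and 4 together, and 1 (without KO replicate 2) to 13 (without control replicate 4) with 1 library left out. For large subunit genes the counts were 3, 5, 11, 1, 5 and 1 to 9 in that order, and for small subunit genes 4 with limma-voom, 1 with the block and 0 to 4 with 1 library left out. Over all genes, 568 calls became 855 with DESeq2, 1054 with limma-voom, 509 with the replicate block (243 higher, 2.45%, against 252), 901 without control replicates 1 and 4, and 270 to 892 with 1 library left out. The cause was not tested. The median log2 fold change was 0.17 to 0.27 for the large and 0.16 to 0.29 for the small subunit with 1 library left out, the highest small subunit value being without control replicate 4. The fitted value was above 0 in 66 to 75 of 80 members in each setting. Same-numbered KO and control libraries gave deviations correlated at -0.003 to 0.066, under the threshold of 0.1 for pairing. Of the 4 KO libraries, 2 correlated best with their own number. Low correlations over all genes cannot exclude a weak pairing by replicate number. Under the replicate block Rpl17, Rpl21 and Rps6 had an adjusted p of 0.0554, 0.0511 and 0.0554.

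Changes of sign fell on genes near 0 that were not called (log2 fold changes). Rps15 was -0.00046 with RLE scaling, -0.00044 with DESeq2, -0.096 with limma-voom and -0.11 without control replicates 1 and 4. Rpl35a was 0.0027 with upper quartile scaling and 0.0013 with no filter. Rpl41 was 0.014 with limma-voom and 0.0051 without control replicates 1 and 4, and Rplp2 -0.074 and -0.068. With 1 library left out, Rps15 ran from -0.075 to 0.093, Rpl35a from -0.041 to 0.056, Rpl41 from -0.11 to 0.022, Rplp2 from -0.083 to 0.065, Rpl22l1 from -0.27 to 0.42, Rps20 from -0.059 to 0.2, Rpl10a from -0.12 to 0.0012, Rpl8 from -0.23 to 0.0079, Rps27l from -0.036 to 0.48, Rps19 from -0.015 to 0.14, Rpl7 from -0.036 to 0.12 and Rps3a1 from -0.12 to 0.021. Of the other values of named genes, 683 kept direction and side of the threshold, 36 lost a call and 16 gained one. In the simulated counts, a 1.5-fold change was seldom called at this spread and number of mice. The changed genes there were drawn at random from all but the lowest genes. The recovered shares therefore do not describe the members, most of which are abundant.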
